A study of Mus musculus with 36 samples.

Results

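The vomeronasal type 1 receptor (V1R) genes of mouse were taken as all genes with a symbol of Vmn1r followed by digits only, which leaves out the entries marked as pseudogenes. The tables of the vomeronasal organ (VNO) listed 221 such genes among 24737 genes. The receptors were followed in 36 RNA-seq libraries of C57BL/6 mice, 12 each from VNO, main olfactory epithelium (MOE) and olfactory bulb (OB). All mice were weaned at 3 weeks, kept 4 to a cage and killed at 6 months of age, without a transgene or drug. In sex-separated cages they lived with their own sex only (SF, females; SM, males), and in sex-combined cages with both sexes (CF, females; CM, males), so the groups differ in sex and in the company of the other sex. By the study's methods they also differ in room, since sex-separated cages were moved at weaning to rooms holding only their own sex. Litters were born in the sex-combined cages and killed soon after birth. Effects of room and of bearing litters cannot be told apart from those of sex and company. Each group had 3 libraries per tissue, and each library held RNA pooled from several mice, for which the sources used here give 2 or 3. The libraries of a group are thus pools of animals, and p-values measure the spread between pools.

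V1Rs are receptors coupled to G proteins, and each is encoded by a coding region without introns. A vomeronasal sensory neuron of the apical layer expresses as a rule a single V1R gene, together with the G protein subunit Gnai2 and the channel Trpc2, while neurons of the basal layer express the type 2 receptors (V2Rs) with Gnao1. The V1R genes lie in clusters of near relatives, and the older nomenclature divides them into clades named V1ra, V1rb and so on. Receptors of the V1rj clade, Vmn1r89 (formerly V1rj2) and Vmn1r85 (V1rj3), are known for responses to sulfated steroids, a class of compounds found in urine. Comparing the groups asks whether the receptors' transcript levels differ between females and males, and whether this depends on the company of the other sex.

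V1R genes resemble each other in their coding bases, and the reads of these libraries were pairs of 50 bases, so the sequences set how well 2 receptors can be told apart. Coding sequences were read from GENCODE M21 (GRCm38) for 219 of the 221 genes, matched by RefSeq accession or, failing that, by symbol. Each run of 50 bases was looked for in the transcripts of all other genes. Vmn1r89, on chromosome 7 of mm9 from 13804688 to 13805638, shared 9.68% of its coding 50-base runs with another gene, and its nearest relative was Vmn1r86, at 90.7% identity. The stretches of Vmn1r89 and Vmn1r86 around their longest common run, of 115 bases, are shown first because a read of 50 bases inside that run fits both genes. The other read of its pair can lie outside the run, which the count of single runs leaves out. The stretches span coding positions 233 to 382, counted from 1 at the start codon. Capitals mark the 4 bases that differ.
Vmn1r89: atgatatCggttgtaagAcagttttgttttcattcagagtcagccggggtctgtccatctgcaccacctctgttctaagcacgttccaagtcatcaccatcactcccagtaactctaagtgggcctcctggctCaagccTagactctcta
Vmn1r86: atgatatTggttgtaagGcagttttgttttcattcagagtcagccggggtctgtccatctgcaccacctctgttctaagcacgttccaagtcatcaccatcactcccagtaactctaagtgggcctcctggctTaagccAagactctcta

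Further along, at coding positions 523 to 672, the same genes differ at 24 bases, again in capitals, and there a read of 50 bases separates them.
Vmn1r89: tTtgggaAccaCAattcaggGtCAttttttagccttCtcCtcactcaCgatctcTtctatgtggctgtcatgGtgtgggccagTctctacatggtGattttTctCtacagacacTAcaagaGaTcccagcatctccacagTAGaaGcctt
Vmn1r86: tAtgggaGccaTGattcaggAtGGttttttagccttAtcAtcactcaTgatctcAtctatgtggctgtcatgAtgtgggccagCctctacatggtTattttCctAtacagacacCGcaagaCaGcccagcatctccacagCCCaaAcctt

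In all, 87 runs of 50 bases were common to Vmn1r89 and Vmn1r86. Vmn1r85, the other V1rj gene (chromosome 7 of mm9, 13669638 to 13670564), was 70.1% identical to Vmn1r89 and shared no run with any gene, so its level and that of Vmn1r89 do not draw on common coding reads. The opposite case was Vmn1r37, the third highest receptor, which shared 82.1% of its runs, mostly with Vmn1r36. These V1rc genes were 97.9% identical over their coding bases. The longest common run had 396 bases. At positions 303 to 452, where they differed most, 6 bases set them apart.
Vmn1r37: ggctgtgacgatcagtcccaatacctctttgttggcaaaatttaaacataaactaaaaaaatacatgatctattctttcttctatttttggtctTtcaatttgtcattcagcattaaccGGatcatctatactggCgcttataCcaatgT
Vmn1r36: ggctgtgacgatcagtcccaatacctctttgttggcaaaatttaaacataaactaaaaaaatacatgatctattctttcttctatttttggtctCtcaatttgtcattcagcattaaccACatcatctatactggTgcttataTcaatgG

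How Cufflinks, the tool that made the values, divided such reads is not seen in the files, so a level of Vmn1r37 or Vmn1r36 taken alone is uncertain. Levels are given as FPKM, fragments scaled to transcript length and to the depth of the library. An order of genes by FPKM thus depends on the transcript length listed for each gene. Vmn1r32, listed from 66502177 to 66509702 on chromosome 6, had a mean of 157 estimated fragments in VNO and 4.09 FPKM. Vmn1r85, with a shorter locus, had 141 fragments and 11.1 FPKM.

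The VNO libraries were checked against markers of vomeronasal neurons. Omp (olfactory marker protein of mature sensory neurons) stood between 80.58 and 116 FPKM, Trpc2 between 33.3 and 50.4 and Gnai2 between 41.8 and 50.4. Of 5 genes listed as bulb markers, Eomes, Tbx21 and Th were at most 0.126 FPKM in VNO, while Cdhr1 had 2.94 to 5.39 FPKM and Gad1 0.550 to 2.09. The fragments estimated on the listed loci numbered 3373400 to 6779893 in the VNO libraries, 3016524 to 5902159 in MOE and 3592962 to 6437263 in OB. Among VNO libraries, the first SF library stood apart in scale, since its upper quartile needed a factor of 1.13 to reach the mean, against 0.943 to 1.035 in the other 11. The second SF library carried cartilage RNA, with Col2a1 (collagen of cartilage) at 13.9 FPKM, and the odorant-binding protein gene Obp1a at 1071 FPKM. For the genes and counts that rest on the SF libraries, values with single libraries left out are therefore given too.

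In VNO, 193 of the 221 V1R genes were above 0 in at least 1 library and 28 were listed at 0 in all 12. The level was low for most of them. The median of the gene means was 0.307 FPKM. A total of 90 genes reached a mean of 0.5 FPKM, the level set for testing, 56 reached 1 FPKM and 6 reached 5 FPKM. Just inside this level were Vmn1r8 (0.527) and Vmn1r87 (0.514), and just outside were Vmn1r75 (0.494) and Vmn1r216 (0.482). By estimated fragments, 81 genes had more than 3 in every VNO library, 58 in some and 82 in none. With 3 fragments as the floor, a receptor below it was not detectable at this depth, which is not the same as absent.

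By FPKM, the highest receptors were the V1rj genes. Vmn1r89 averaged 13.3 ± 3.54 FPKM (SD, n = 12) and Vmn1r85 11.1 ± 1.69, and together they held 12.3% of the summed V1R level. Either one or the other had the highest V1R FPKM in each of the 12 libraries, Vmn1r89 in 9 and Vmn1r85 in the 3 SF libraries. Next came the V1rc genes Vmn1r37 (8.82 ± 1.35) and Vmn1r35 (7.43 ± 1.21), and Vmn1r184 (6.61 ± 0.775), which has no older V1r symbol in the table. Vmn1r218 (V1ri) had 5.05 ± 1.10, Vmn1r237 (V1rf) 4.13 ± 0.818, Vmn1r32 and Vmn1r33 (V1rc) 4.09 ± 0.606 and 4.04 ± 0.894, and Vmn1r71 (V1re) 4.02 ± 0.514. The spread of these last 4 is larger than the steps between them, so their order is not settled. The 10 highest genes made up 34.4% of the summed level, 20 genes made up the first 50%, and the genes under 0.5 FPKM held 7.40%.

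**Figure D1:**
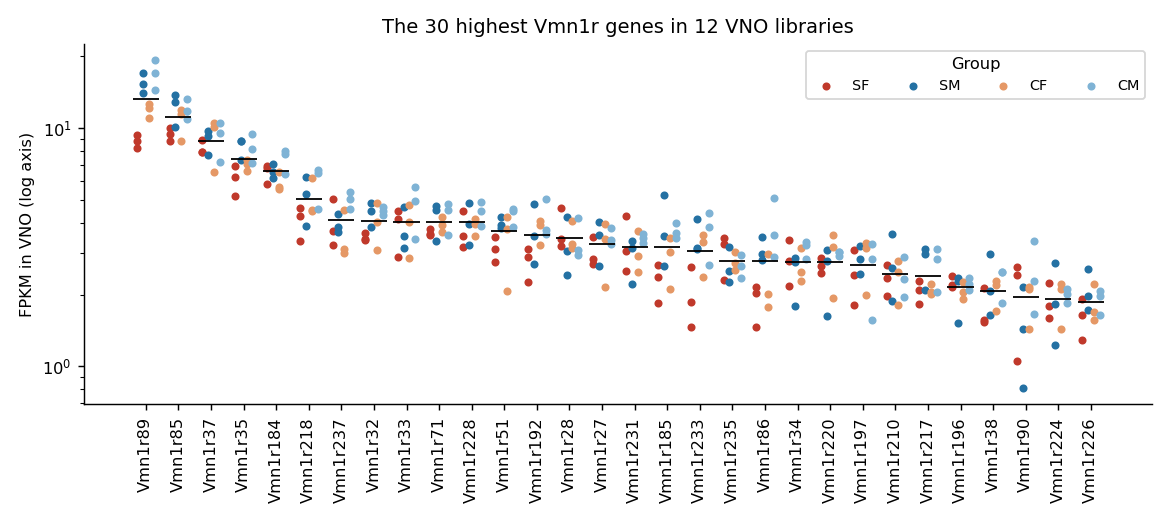
FPKM (log axis) of the 30 V1R genes with the highest mean in VNO, 1 point per library coloured by group, with the mean of 12 libraries as a black line. Vmn1r89 and Vmn1r85 stand above the rest at means of 13.3 and 11.1 FPKM, and the levels fall gradually from Vmn1r237 on.

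The order of the 90 tested genes was much alike between libraries. Spearman's rho between 2 libraries ranged from 0.781 to 0.941 over the 66 pairs (median 0.876), as a description across genes that share libraries and are not independent. The coefficient of variation over the 12 libraries had a median of 26.6%, and counting the estimated fragments alone would give a median of 23.3%. The most even genes were Vmn1r196 (V1rh, 11.3%), Vmn1r184 (11.7%) and Vmn1r71 (12.8%). For Vmn1r196, counting its mean of 25.8 fragments alone would give 19.7%, more than was seen, so its first place is not settled. Most uneven were Vmn1r193 (V1ri, 48.8%), Vmn1r236 (V1rf, 47.8%) and Vmn1r81 (V1rg, 45.8%), with means of only 7.21 to 16.6 fragments per library.

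The genes fell into 13 locus clusters of mm9, with gaps of at most 1 Mb inside a cluster, and 8 of these held at least 5 genes (214 genes in all). The largest sum of mean levels came from a cluster on chromosome 7 (10859177 to 13805638, here 7b). Its 24 genes include both V1rj genes, and it gave 45.5 FPKM or 22.9% of the family, with 16 genes at 0.5 FPKM or more. A cluster on chromosome 13 (22179747 to 23342192), which holds the V1rh and V1ri genes, gave 39.9 FPKM from 35 genes, of which 23 reached 0.5. On chromosome 6, the compact cluster 6b (66502177 to 66755326) with Vmn1r37 and Vmn1r35 had only 8 genes, but all 8 reached 0.5 FPKM, and their sum was 31.6 FPKM. Of the 14 genes on chromosome 17 (20556127 to 21451850), led by Vmn1r237, 13 reached it. The other clusters on chromosome 6 were led by Vmn1r28 (6a, V1rc, 3.47 ± 0.660 FPKM, 12 of 28 genes at 0.5 or more) and by Vmn1r51 (6c, V1ra, 3.69 ± 0.739, 7 of 15 genes). Cluster 7a, led by Vmn1r58 (V1rd, 1.60 ± 0.400), had 5 of 13 genes at that level.

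Among the clusters of at least 5 genes, the one with the most genes had the lowest median, at 0.0105 FPKM. Cluster 7d of chromosome 7 (20686507 to 24840710) holds 77 V1R genes, and only Vmn1r181 (0.892 ± 0.265 FPKM), Vmn1r176 and Vmn1r171 reached 0.5 FPKM, while 23 genes were listed at 0 throughout. Its sum was 6.14 FPKM, 3.09% of the family. The coding sequences of this cluster were also the hardest to tell apart, with a median of 98.8% of their 50-base runs shared with other genes, against medians of 0% in clusters 7b and 17 and 16.05% on chromosome 13. In addition, 17 of its genes had more than 1 locus in the tables. Over the whole family, the 49 genes with more than 90% of runs shared had a median level of 0.00528 FPKM, and 1 of them reached 0.5. That gene, Vmn1r90 (1.95 FPKM), overlaps the pseudogene Nlrp5-ps in the tables, and its reads may belong to either. Vmn1r216, also counted among the 49, shared most with a second GENCODE entry of its own symbol, which may not be another gene. The 62 genes with under 10% shared had a median of 0.696, and 39 of them reached 0.5 FPKM. Across 219 genes, level and share of common runs had a Spearman's rho of -0.65, as a description. Low transcription and reads that could not be placed cannot be told apart for these genes.

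**Figure D2:**
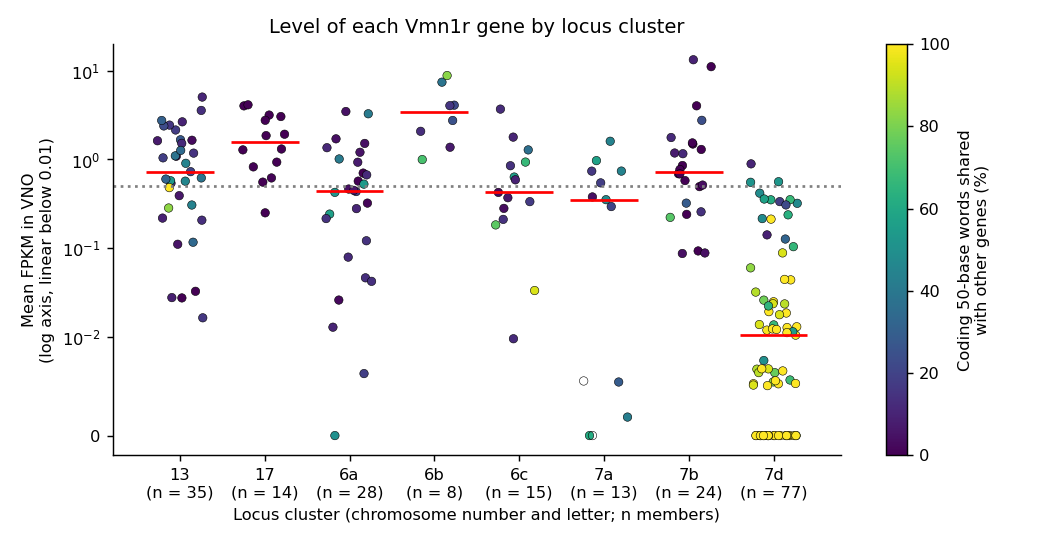
Mean FPKM over 12 VNO libraries of each V1R gene (log axis, linear below 0.01) in the 8 clusters of at least 5 genes, with the median as a red line and 0.5 FPKM as a dotted line. Colour gives the share of coding 50-base runs found in other genes, and open points have no coding sequence in the table. Cluster 7d has a median of 0.0105 FPKM and mostly shared runs, while all 8 genes of cluster 6b lie above the dotted line.

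Outside the VNO the family was barely detectable. The summed V1R level was 199 ± 21.4 FPKM in VNO (SD, n = 12), 1.04 ± 0.386 in MOE and 1.13 ± 0.272 in OB. The tables of each tissue were made separately, so levels are set side by side across tissues without a test. Of 207 of the genes that the MOE tables also list, 126 were at 0 in all 12 MOE libraries and only Vmn1r181 exceeded 3 fragments anywhere, with 4 in the first SF library (0.269 FPKM). Vmn1r51, a receptor used by the authors as a VNO marker, was between 2.07 and 4.55 FPKM in VNO and averaged 0.00214 FPKM in MOE and 0.00603 in OB. Vmn1r89 was listed at 0 in all MOE libraries.

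In OB, 174 of the 221 genes were at 0 in all libraries and 3 neighbours on chromosome 13 of mm9 exceeded 3 fragments in at least 1. Vmn1r206 (V1rh, 22711966 to 22712904) did so in 8 of 12 libraries, with a mean of 0.388 FPKM. Its OB level was 0.353, 0.586 and 0.321 FPKM in SF, 0, 0.227 and 0.471 in SM, 0.229, 0.290 and 0.281 in CF, and 0.269, 0.506 and 1.13 in CM. The highest value rests on 16 fragments, and the groups overlapped. Vmn1r207 and Vmn1r209 did so in 3 libraries each, and averaged 0.177 and 0.176 FPKM. In VNO these genes were of ordinary level, at 1.10, 0.601 and 0.307 FPKM. The 3 genes held 65.5% of the summed V1R level in OB and 1.01% in VNO. Vmn1r206 and Vmn1r209 were 96.0% identical, with 261 runs of 50 bases in common, so a fragment could belong to either. The 150 bases below, from coding positions 100 to 249, are the same in both and lie within their longest common run of 194 bases.
Vmn1r206: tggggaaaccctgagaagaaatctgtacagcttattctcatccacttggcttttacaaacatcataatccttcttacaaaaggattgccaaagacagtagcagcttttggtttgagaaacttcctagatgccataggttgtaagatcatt

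Between females and males the VNO levels were compared with limma on log2(FPKM + 0.5) over the 13864 genes with a mean of at least 0.5 FPKM, with p-values adjusted over all of them by Benjamini-Hochberg. Fold changes on this scale understate those of low genes. Vmn1r89 was the receptor that stood out. Its FPKM was 8.85, 9.35 and 8.25 in the SF libraries, 15.3, 14.1 and 17.1 in SM, 12.2, 12.6 and 10.996 in CF, and 19.3, 17.1 and 14.4 in CM. Each female library lay below each male library, in both kinds of cage. Vmn1r89 was the only V1R gene of 90 with no overlap between 6 female and 6 male libraries, and 0.411% of all genes tested were lower in every female library. Each SF library of Vmn1r89 also lay below each CF library, but it was not called there (adjusted p of at least 0.249 from limma over the alternative fits). Between SF and CF, 1465 of all 13864 genes were lower and 56 higher at an unadjusted p under 0.05 from limma. In whole tissue, fewer neurons that express a receptor and less RNA per neuron cannot be told apart. None of the 90 was higher in every female library (0.216% of all genes).

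Over both housings, Vmn1r89 differed by -0.63 (log2, SE 0.0765, adjusted p = 0.00567 from limma) between females and males. It was the 1 V1R gene called at an adjusted p under 0.05, against 0.123% of all genes tested (17 genes). Within the sex-separated libraries the difference was -0.78 (SE 0.108, adjusted p = 0.0245), and Vmn1r89 was again the only V1R gene called, where 0.0721% of all genes were. Within the sex-combined libraries it was -0.48 (SE 0.108, adjusted p = 0.441), and no V1R gene was called (0.0433% of all genes). The difference between these sex differences was -0.30 (SE 0.153, adjusted p = 0.895 from limma), so that a dependence on housing was not shown for this gene. The sex-separated call depended on single libraries and on the processing. Without SF library 1, 2 or 3 the adjusted p was 0.0845, 0.0528 and 0.143, and without SM library 1 or 3 it was 0.145 and 0.120. With quantile normalization, upper quartile scaling or scaling to the summed V1R level the adjusted p was 0.142, 0.136 and 0.144, and in a fit of the 6 libraries alone it was 0.0962. The call over both housings held without any 1 of the 12 libraries, with adjusted p between 0.00226 and 0.0257 from limma.

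The same values of Vmn1r89 were set against the family, as a description and not as separate support. Vmn1r89 made up 4.48% to 6.44% of the summed V1R level in the 6 female libraries and 6.95% to 8.32% in the 6 male libraries, with no overlap. Relative to Vmn1r85, it stood at 0.879 to 0.993 in SF, 1.06 to 1.24 in CF, 1.19 to 1.39 in SM and 1.23 to 1.56 in CM, so that here the third CF library overlapped with males. The values rest on 86.6 to 271 estimated fragments of Vmn1r89 per library.

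Its relatives did not pass the test. Vmn1r86, the gene with which Vmn1r89 shares reads, had 1.46, 2.02 and 2.14 FPKM in SF, 2.78, 2.96 and 3.47 in SM, 2.96, 1.76 and 2.01 in CF, and 5.10, 2.88 and 3.54 in CM. The SF libraries lay below the SM libraries, while the first CF library overlapped with CM. Over both housings the difference was -0.62 (SE 0.140, adjusted p = 0.187 from limma), and between -0.71 and -0.52 with single libraries left out. Vmn1r85, which shares no coding run with either, had 10.06, 9.42 and 8.79 FPKM in SF, 12.9, 10.12 and 13.8 in SM, 11.5, 11.9 and 8.87 in CF, and 13.3, 10.9 and 11.8 in CM. The SF and SM libraries were apart by a narrow margin and CF and CM overlapped (-0.25 over both housings, SE 0.0928, adjusted p = 0.565). Vmn1r69, a V1re gene of the same cluster, was at 0.999, 0.836 and 0.856 FPKM in SF and 1.61, 1.17 and 1.96 in SM, but at 1.14, 0.951 and 0.849 in CF and 1.13, 1.36 and 1.079 in CM. Its difference was -0.56 in the sex-separated libraries (adjusted p = 0.334, and between -0.71 and -0.43 with single libraries left out) and -0.37 over both housings (adjusted p = 0.345).

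**Figure D3:**
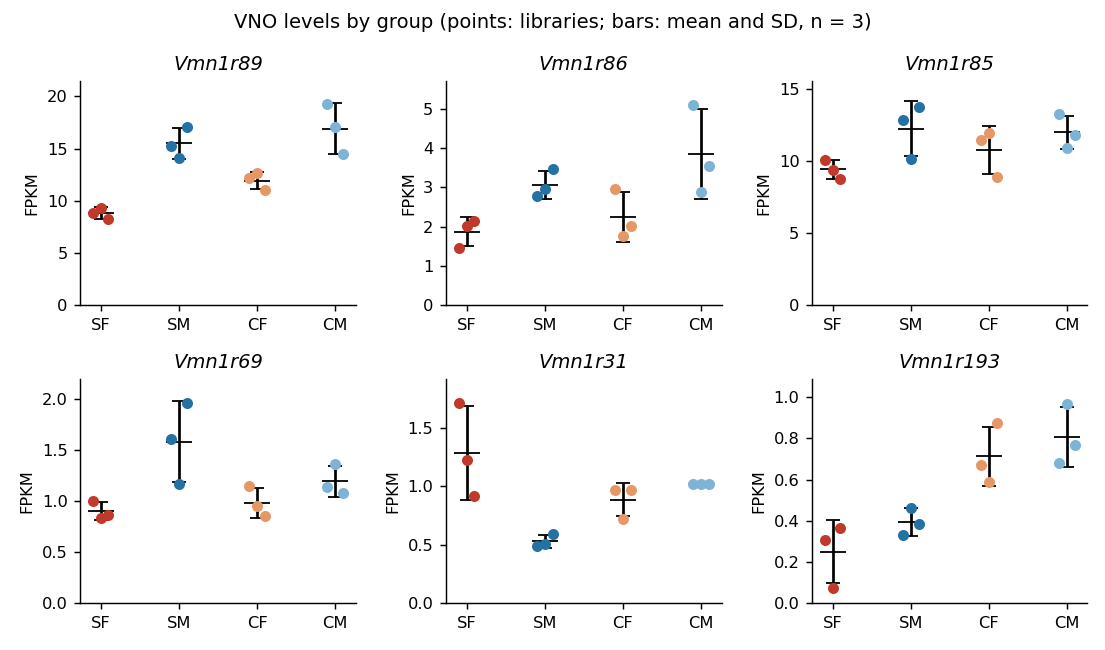
FPKM of 6 V1R genes in the VNO libraries of each group, with points for libraries and bars for the mean and SD of 3. The female libraries of Vmn1r89 lie at 8.25 to 12.6 FPKM and the male libraries at 14.1 to 19.3, whereas Vmn1r31 is higher in SF than in SM but not in CF than in CM.

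Vmn1r31 (chromosome 6 of mm9, 58421961 to 58422872) was the exception in direction. Its FPKM was 1.72, 1.23 and 0.918 in SF, 0.488, 0.504 and 0.593 in SM, 0.972, 0.720 and 0.965 in CF, and 1.02 in each of the CM libraries. The SF libraries all lay above the SM libraries, and the CF libraries all lay just below the CM libraries. The sex difference was 0.77 in the sex-separated libraries (SE 0.150, adjusted p = 0.156 from limma) and -0.14 in the sex-combined ones (adjusted p = 1), and neither they nor their difference (0.91, adjusted p = 0.895) passed the test. Leaving out single libraries moved the sex-separated difference between 0.61 and 0.93. Only 6 to 17.98 estimated fragments per library stood behind these values.

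Across the 90 tested genes, most differences between females and males were small. Over both housings 71 genes (78.9%) had a difference below 0, where 66.7% of all genes tested did. With quantile normalization the count was 60 and with upper quartile scaling 58. With scaling to the summed V1R level it was 39, but that scaling makes the V1R sum equal in all libraries. It takes out any shift of the whole family and so cannot test the direction. The median was -0.112 for the V1R genes and -0.0344 over all genes, and with upper quartile scaling -0.080 and 0.001. At an unadjusted p under 0.05, 20 V1R genes (22.2%) were lower in females, where 4.97% of all genes were, and 1, Vmn1r31, was higher, where 1.76% of all genes were. The 20 came from 6 of the clusters of at least 5 genes and from Vmn1r185 near them, with 5 of 16 tested genes in 7b, 4 of 23 on chromosome 13, 3 of 8 in 6b, 3 of 7 in 6c, 3 of 13 on chromosome 17 and 1 of 12 in 6a. The members share libraries and, in part, reads, and of these 20 only Vmn1r89 passed the adjusted test. Without the first SM library 13 V1R genes (14.4%) and 3.78% of all genes were lower at that p. With scaling to the summed V1R level, which takes out a shift of the whole family, 6 V1R genes (6.67%) were lower and 5 (5.56%) were higher, where 0.389% and 21% of all genes were.

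Within the sex-separated libraries 60 V1R genes (66.7%) were below 0, against 74.7% of all genes. With quantile normalization, upper quartile scaling and scaling to the summed V1R level the counts were 55, 53 and 41. The last of these scalings, here and below, takes out any shift of the whole family. At an unadjusted p under 0.05, 13 V1R genes (14.4%) were lower in SF, with 7.89% of all genes, and 1, Vmn1r31, was higher, with 0.902% of all genes. Without SF library 1, 2 or 3, 10, 15 and 12 V1R genes were lower, with 4.07%, 7.52% and 11.6% of all genes, and without the first SM library 8 were, with 5.57%. The split also moved with scaling. With upper quartile scaling 10 V1R genes were lower and 1 was higher, with 3.21% and 2.86% of all genes, and with scaling to the summed V1R level 6 were lower and 7 were higher, with 0.563% and 7.88%. In 12 genes (13.3%) every SF library lay below every SM library, which 12.9% of all genes also showed. Within the sex-combined libraries the shares of V1R genes and of all genes were further apart. A difference below 0 was seen in 68 of them (75.6%) and in 45.3% of all genes, with the same count of 68 under quantile normalization and upper quartile scaling and 46 with scaling to the summed V1R level, and 8 (8.89%) were lower in CF at an unadjusted p under 0.05, where 1.53% of all genes were. Another 2, Vmn1r73 (V1rg) and Vmn1r21 (V1rc), were higher, where 2.41% of all genes were. Every CF library lay below every CM library for 11 V1R genes (12.2%) and for 3.25% of all genes. Vmn1r237 was among these 11, at 3.00, 4.54 and 3.11 FPKM in CF and 5.06, 5.41 and 4.57 in CM (-0.46, adjusted p = 1 from limma). Without the third CF library, 55 genes were below 0 and 3 (3.33%) were lower at an unadjusted p under 0.05, where 1.01% of all genes were, so that these counts rest in part on this library.

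**Figure D4:**
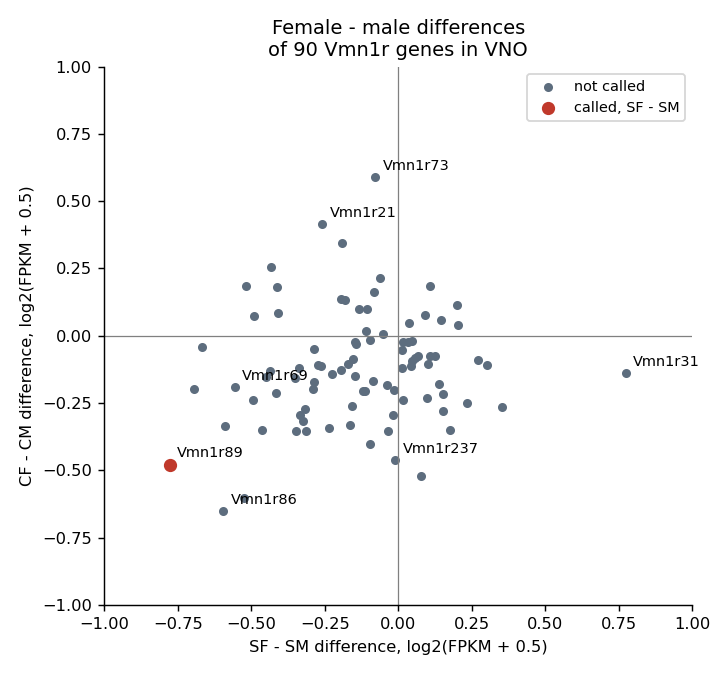
Female minus male differences of 90 V1R genes on the log2(FPKM + 0.5) scale in sex-separated (horizontal axis) and sex-combined (vertical axis) VNO libraries, 1 point per gene. Vmn1r89, the gene called between SF and SM, lies at -0.78 and -0.48, and Vmn1r31 lies alone on the right at 0.77.

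The summed V1R level was 173, 172 and 184 FPKM in SF, 220, 183 and 217 in SM, 208, 207 and 171 in CF, and 232, 218 and 206 in CM. Females averaged 186 ± 17.3 FPKM and males 213 ± 16.5 (SD, n = 6), and single libraries of the sexes overlapped. The summed level of 122 V2R genes was 269 ± 21.2 FPKM in females and 269 ± 15.7 in males. The ratio of the V1R to the V2R sum was 0.694, 0.686 and 0.654 in SF, 0.693, 0.734 and 0.676 in CF, 0.765, 0.748 and 0.820 in SM, and 0.813, 0.819 and 0.782 in CM. Every female library thus lay below every male library, whereas the housings overlapped. Without Vmn1r89 the ratios were 0.624 to 0.689 in females and 0.690 to 0.755 in males, which just do not overlap. Without the 10 highest V1R genes they were 0.446 to 0.479 and 0.478 to 0.530, and the second SM library fell inside the female range. Relative to Omp in place of the V2R genes, the V1R sum was 1.61 to 2.13 in females and 1.87 to 2.18 in males. On that measure the sexes overlapped. No test was made of these sums, because the genes in them were chosen with earlier results known.

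**Figure D5:**
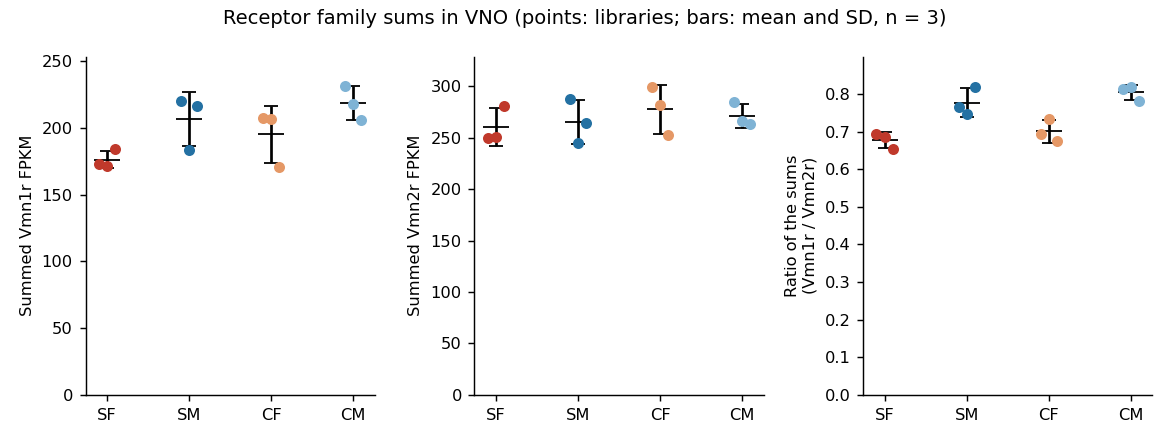
Summed FPKM of the V1R genes and of the V2R genes, and the ratio of the sums, in the 12 VNO libraries, with points for libraries and bars for the mean and SD of 3. The V1R to V2R ratio lies between 0.654 and 0.734 in females and between 0.748 and 0.820 in males.

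Among genes that act with the V1Rs, 9 of 10 signalling genes were tested, and 0 were called by limma in the comparisons of sex or housing. At an unadjusted p under 0.05, 1 was lower over both housings in females and 4 were lower in sex-separated libraries. Gnai2 averaged 42.9 FPKM in SF, 46.9 in SM, 47.7 in CF and 47.0 in CM, and the difference over both housings was -0.05 (adjusted p = 0.914). Trpc2 had 39.9, 40.1, 46.8 and 45.0 FPKM, and Omp 88.3, 101, 108 and 108. Rtp1, which helps olfactory receptors to the cell surface, had 11.6 FPKM in SF and 13.97 in SM (-0.25), and Gng8, a G protein subunit, had 10.05 in CF and 7.37 in CM (0.43), which were the signalling genes past an unadjusted p under 0.05 within a housing. None of the 5 apical and 6 basal neuron markers, which share Trpc2 and Omp, was called either.

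Some markers of other cells moved with sex. Gad1, listed as a marker of bulb interneurons, was called between SF and SM (0.762 and 1.77 FPKM, -0.86, adjusted p = 0.0298 from limma) and over both housings (-0.66, adjusted p = 0.0132), and its part in the result was not tested. Cdhr1, on the same list, had 3.94 FPKM in SF, 3.42 in SM, 4.13 in CF and 4.26 in CM. Among 5 genes of main olfactory neurons, 4 were lower in SF than in SM at an unadjusted p under 0.05 and 0 were called, and their summed level was 15.1 to 18.8 FPKM in SF, 25.6 to 31.1 in SM, 19.1 to 30.6 in CF and 19.4 to 27.6 in CM. The summed level of 3 cartilage and bone genes, most of it Bglap (osteocalcin), was 44.6 to 80.27 FPKM in SF, 25.8 to 42.3 in SM, 44.1 to 60.1 in CF and 27.8 to 36.9 in CM, higher in each female than in each male library. Their part in the differences of the V1R genes was not tested. Of 5 gland, 3 ciliated cell and 3 erythroid genes 0 were called by limma, and 0 passed an unadjusted p under 0.05 between the sexes. None of 3 muscle genes reached 0.5 FPKM on average.

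Between housings, no V1R gene was called by limma over both sexes, within females or within males. Of all genes, 0% were called in each of these comparisons. By the study's values, RNA integrity was mostly higher in sex-separated than in sex-combined VNO libraries. RNA integrity and housing thus cannot be fully told apart. Over both sexes, 5 V1R genes (5.56%) were lower in sex-separated libraries at an unadjusted p under 0.05, with 7.10% of all genes, and 1, Vmn1r236, was higher, with 0.476% of all genes. Without the third CF library 11 (12.2%) were lower, with 8.24% of all genes, and without SM library 3, CM library 3 or SF library 3 it was 9, 9 and 8, with 5.27%, 6.94% and 10.8%. Between SF and CF 9 V1R genes (10%) had an unadjusted p under 0.05, with 11% of all genes, and between SM and CM 5 (5.56%), with 2.31% of all genes. With single libraries left out, the count between SF and CF ran from 5 (without the first SF library, with 6.20% of all genes, or the second CF library, with 7.56%) to 12 (without the third CF library, with 13.0%). Between SM and CM it ran from 4 to 10, the latter without the second SF library (2.45% of all genes). For the interaction of sex and housing 0 V1R genes were called by limma (0% of all genes) and 4 had an unadjusted p under 0.05 (4.44%), with 5.26% of all genes. That count was 10 without the second SF library (5.80% of all genes), 2 without the third SM library (4.88%) and 11 with library weights (6.61%).

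Vmn1r193, a V1ri gene on chromosome 13 (22310730 to 22311689 of mm9), had the smallest p-value for housing. It had 0.306, 0.0740 and 0.364 FPKM in SF, 0.329, 0.463 and 0.385 in SM, 0.673, 0.590 and 0.873 in CF, and 0.681, 0.965 and 0.770 in CM. All 6 sex-separated libraries lay below all 6 sex-combined ones, the only V1R gene of 90 to do so, where 0.317% of all genes did, and none was higher in every sex-separated library (0% of all genes). The difference was -0.63 (SE 0.122, adjusted p = 0.501 from limma, and between -0.69 and -0.54 with single libraries left out) and did not pass the test. It rests on 1 to 14 fragments per library. Vmn1r44 (V1rb), with 0.412 to 1.12 FPKM in sex-separated and 0.670 to 1.35 in sex-combined libraries, differed by -0.37 (adjusted p = 0.629) with overlap. Vmn1r6 (V1rc) had 0.880, 1.04 and 1.15 FPKM in SM, above 0.431, 0.487 and 0.465 in CM (0.66, adjusted p = 1), while SF (0.841, 0.767 and 0.341) and CF (1.01, 0.400 and 0.609) overlapped.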

How the data were processed

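Total RNA of MOE, VNO and OB was depleted of ribosomal RNA, and stranded libraries were sequenced as paired reads of 50 bases. According to the submitters' processing notes, the authors used TopHat2 2.1.0, Cufflinks 2.2.1.0 and Cuffdiff with mm9. The deposited values are FPKM per transcript locus with confidence bounds, 1 table per library. RefSeq accessions were assigned symbols (99.7% of loci), FPKM was summed per gene, and fragments were estimated by squaring FPKM over the standard error that its confidence bounds imply. These cover counting error only.

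VNO groups were compared with limma 3.58.1 (R 4.3.3, trended prior variance, all 12 libraries) on log2(FPKM + 0.5) for 13864 genes with a mean of at least 0.5 FPKM. The script was tested on simulated data. Descriptions used Python 3.11.15 with pandas 2.3.3. Genes named were the 10 highest, the 3 smallest p-values and every call per comparison, OB and MOE traces, the highest gene per cluster, the extremes of variation, and marker and signalling lists. Genes named beside these were chosen after their values were seen. The members and lists were chosen with earlier results of these data known. RNA integrity and concordant mapping per library, used as covariates, are those of the study. Alternatives covered pseudocount, filter, scaling, library weights, covariates, replicate block and left-out libraries.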

Additional observations from a re-analysis of the deposited data

Results flagged for a closer look

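Vmn1r31 was the 1 tested V1R gene whose sex difference ran in opposite directions under the 2 housings without overlap of single libraries: all 3 SF libraries lay above all 3 SM libraries, and all 3 CF libraries lay below all 3 CM libraries. The female minus male difference was 0.91 (log2) larger in sex-separated than in sex-combined libraries. The test of that difference gave an adjusted p of 0.895 from limma, so it was not shown to differ from 0, and the difference ranged from 0.67 to 1.30 over the alternatives with adjusted p between 0.497 and 1.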

How the results depend on the processing

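Between SF and SM, the count of V1R genes called (1, Vmn1r89) fell to 0 with quantile normalization, upper quartile scaling, scaling to the summed V1R level, the replicate block and a fit on only the 6 libraries compared, and lay between 0 and 1 when each library was left out. Over these alternatives the difference of Vmn1r89 stayed between -0.84 and -0.56, with adjusted p from 0.0119 to 0.145. Over both housings the count was 1 throughout, except 2 with the RNA integrity number as covariate, where Vmn1r217 joined (-0.39, adjusted p = 0.0178 from limma). In the other 5 comparisons it was 0 under every alternative. Only Vmn1r89, between SF and SM and over both housings, was past the threshold to begin with. Its call between SF and SM was kept in 13 of 23 alternatives, and its call over both housings in 22 of 22. Of all 474 values of named genes under the alternatives, 464 kept direction and side of the threshold, 0 reversed, and 10, all of Vmn1r89 between SF and SM, were no longer past it. The other values were picked for the smallest p-values and were not called, so the total says little about stability.

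Deviations of same-numbered libraries of different groups correlated between -0.14 and 0.273 over 18 pairs (mean 0.0647), 7 of them over 0.1. With different numbers they correlated between -0.185 and 0.164 over 36 pairs (mean -0.0323), 4 of them over 0.1. Same-numbered libraries thus deviated together somewhat more often, and whether the numbers mark a shared step of handling is not known. With the replicate block the adjusted p of Vmn1r89 was 0.0583 between SF and SM and 0.0157 over both housings, and no other call changed.

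The number of genes at a mean of 0.5 FPKM or more (90) became 136 at 0.1 and 56 at 1. With 10 in place of 3 fragments, 41 genes passed in every VNO library, 0 in MOE and 1 in OB. The summed VNO level of 199 FPKM was 131 without the 10 highest genes.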
